A study of Danio rerio with 6 samples.

Results

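Normal zebrafish embryos at the 10-somite stage, when the trunk is being divided into somites and the brain, eyes, notochord and tail bud are taking shape, were profiled by RNA-seq in 1 library. That library, made from RNA of whole embryos labelled control and normal, is 1 of the 6 libraries of the study and was chosen by its label, not by its values. Of the other 5, 1 is RNA from dnmt1 morphant embryos at the same stage, and 4 hold methylated DNA immunoprecipitated from control and dnmt1 morphant embryos at 80% epiboly. None of these is compared here. No source used here gives the strain, the number of embryos pooled or whether the control embryos received an injection. With 1 library there is no replicate, so every value below is a description of this library, and the 95% intervals given cover counting error only.

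An embryo of this age is made up of dividing cells of several forming tissues. Somites form in sequence from the presomitic mesoderm under a molecular clock of Notch signalling and her genes, while Wnt and FGF signals keep the tail bud growing and retinoic acid from the somites opposes them. Hox genes, arranged in clusters, give each level along the body axis its identity. The yolk syncytial layer, a shared cytoplasm at the yolk surface, feeds the embryo by packing yolk lipid into lipoproteins.

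The table listed 24832 gene IDs and held 9.898 M uniquely placed reads (M, megareads). Of these IDs 22180 (89.3%) had at least 1 read, 14460 (58.2%) reached 1 RPKM (reads per kilobase of listed gene length and per megaread) and 2652 (10.7%) had none. At the median listed length of 1809 bases, 1 RPKM stood for 17.9 reads and the 3 reads that a count of 0 allows stood for 0.168 RPKM. The median over all gene IDs was 2.03 RPKM. Genes at 10 RPKM or more numbered 6535, those at 100 RPKM or more 706, and those at 1000 RPKM or more 70. The 70 genes of the top level held 18.95% of all reads, and the 5829 genes between 10 and 100 RPKM held 44.5%. The 7720 genes that had reads but stayed under 1 RPKM held 0.553% of reads in all.

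**Figure D1:**
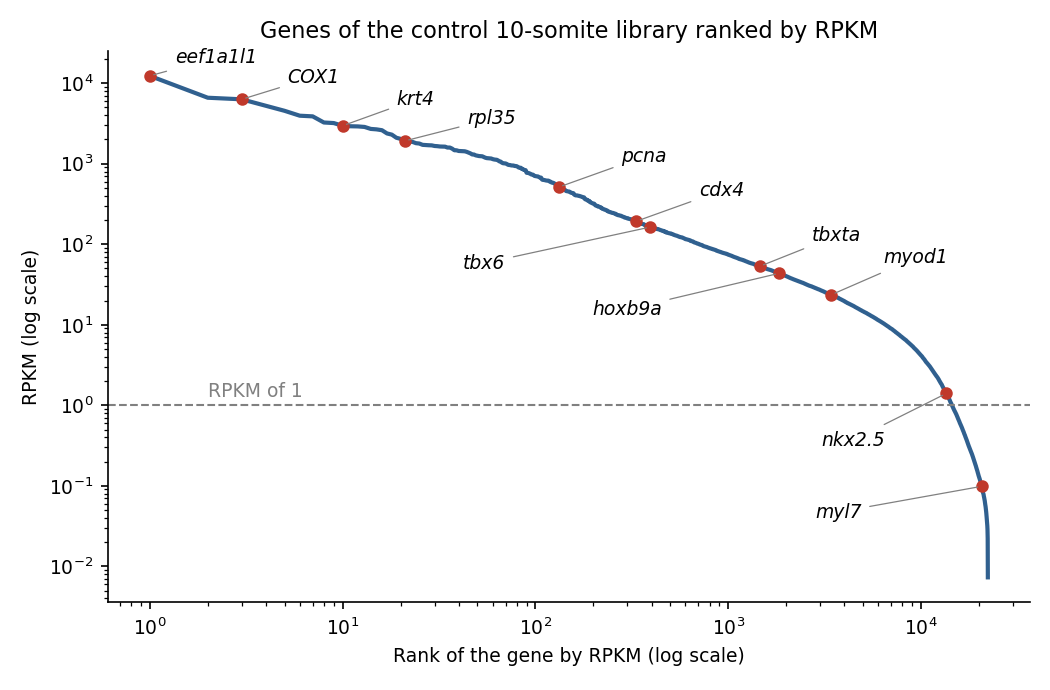
Genes with at least 1 read in the control library, ranked by RPKM (rank on the x axis, RPKM on the y axis, both on log scales), with 12 named genes as red points. The line runs from eef1a1l1 at 12352 RPKM past pcna (512), tbx6 (164) and myod1 (23.6) to nkx2.5 (1.402), with the heart muscle gene myl7 at 0.0985, below the dashed line at 1 RPKM.

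The library was led by genes of protein synthesis, energy supply and cell structure. The elongation factor gene eef1a1l1, whose product brings aminoacyl-tRNA to the ribosome, stood first on both scales, with 212006 reads (2.14% of the library) and 12352 RPKM. Its companion eef2b, which moves the ribosome along the mRNA, had 2919.9 RPKM. The chromatin protein gene hmga1a, an AT-hook architectural factor, held the next largest number of reads, 134421, at 5237 RPKM. The 10 genes with most reads held 8.99% of the library (95% exact interval 8.97 to 9.01), the top 100 held 24.4% and the top 1000 held 56.9%. It took 684 genes to reach 50% of the reads. The 10 genes were, in order, eef1a1l1, hmga1a, the mitochondrial COX1, eef2b, the lipoprotein gene apobb.1, the keratin gene krt4, the actin gene actb2, the heat shock protein genes hspa8 and hsp90ab1, and si:ch211-279m15.1.

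All 13 protein-coding genes of the mitochondrial genome were among the highest, between 965 RPKM (ND3) and 6311 RPKM (COX1, a core subunit of cytochrome c oxidase). They held 3.20% of reads and 6.99% of summed RPKM. ATP6 and mt-atp8, which encode subunits of ATP synthase, stood at 4544 and 3949 RPKM. COX2 and COX3 followed at 3875 and 2907 RPKM, and CYTB, ND2, mt-nd4l and ND1 at 2672, 2609, 1716 and 1696 RPKM. The nuclear genes of the same respiratory chain were lower, with a median of 32.7 RPKM over 100 genes and a highest value of 331 RPKM (cox6b2).

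Genes of other functions filled the rest of the top ranks. Actin gene actb2 had 3252 RPKM, the prothymosin alpha gene si:ch211-222l21.1 had 3199 and its paralog ptmab 1781. The heat shock genes hspb1 and hspa8 had 2864 and 2299 RPKM. The RNA-binding protein genes ybx1 and cirbpa had 1872 and 1661 RPKM. Among ribosomal protein genes rpl35 had 1919.6, rpl6 1871, rpl7a 1705 and rps2 1691 RPKM, beside 1801 RPKM for si:dkey-151g10.6, listed as ribosomal protein L41. The gene tpt1, for a protein known as translationally controlled tumor protein, had 2707 RPKM, but its 30916 reads covered 37.95% of its listed length. Among the genes with most reads but lower RPKM were apobb.1 (76778 reads, 675 RPKM), hsp90ab1 (53228 reads, 1588 RPKM), krt5 (39197 reads, 1652 RPKM), krt8 (33734 reads, 1539 RPKM), cirbpb (32833 reads, 1187 RPKM) and the nucleolar protein gene ncl (29831 reads, 936 RPKM).

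The gene in second place by RPKM was si:ch211-279m15.1, with 48490 reads, 6602 RPKM and 96.6% of its 742 bases covered. The file lists it as a processed transcript, and the only protein match listed for it is to a choanoflagellate protein, so no function is given to it here. Genes of secreted proteins, most of them known from the liver or the yolk syncytial layer, also ranked high: apoeb at 2377 RPKM, fetub (fetuin B, a protease inhibitor) at 2104 RPKM and afp4 (type IV antifreeze protein, an apolipoprotein-like protein) at 2035 RPKM. A further gene ID that carries the name afp4 had 834 RPKM.

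Sorting every gene ID into a class by its KEGG Orthology and GO Process entries, and for ribosomal proteins also by symbol, showed how the reads were divided. Metabolism and other enzymes formed the largest named class, with 10.6% of reads over 3881 genes. RNA splicing and processing followed with 8.77% over 521 genes, transcription regulation with 7.78% over 2406 genes, signalling with 5.98% over 2891 genes and translation factors with tRNA synthetases with 5.91% over 251 genes. Histones and chromatin proteins held 5.77%, cytosolic ribosomal proteins 5.41% and the proteins of DNA replication, repair and cell division 3.69%. Annotated genes that matched no class held 14.8%, and genes with no entry used here held 4.58%. Exact intervals around these shares were narrower than 0.05 percentage points, far smaller than the changes made by other ways of sorting. The order of the classes changed too. By GO Process alone, translation factors with tRNA synthetases were the largest named class, with 9.89% of reads against 7.04% for metabolism and other enzymes. On that setting no gene could enter the cytosolic ribosomal protein class, which held 0% of reads. Ribosomal protein genes with translation terms could then fall among the translation factors, so the 9.89% and the 5.91% do not describe the same genes.

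**Figure D2:**
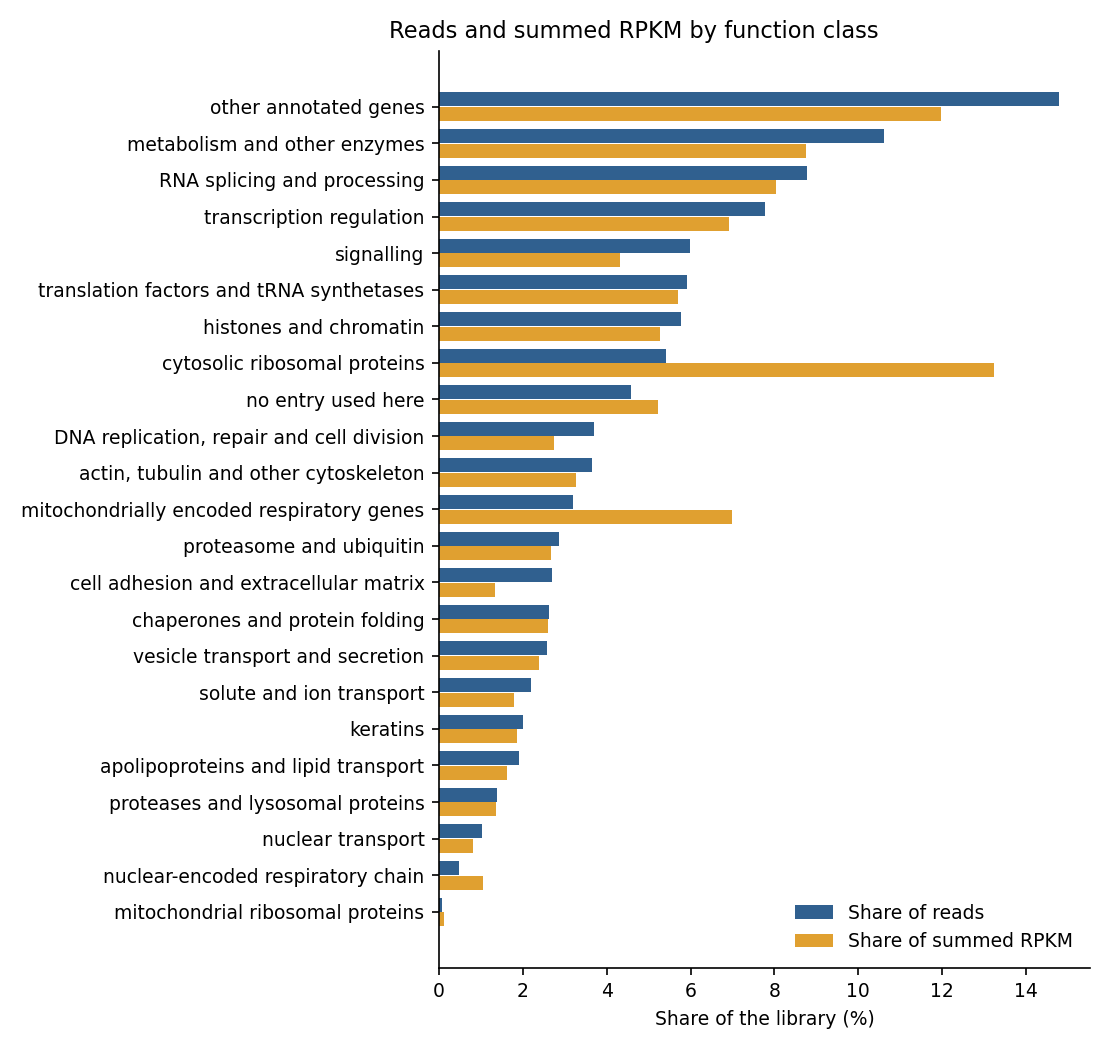
Share of the library by function class (x axis, percent; y axis, class), as reads (blue) and as summed RPKM (orange). Cytosolic ribosomal proteins, whose genes are short, held 5.41% of reads and 13.2% of summed RPKM, and mitochondrially encoded genes 3.20% and 6.99%.

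Per length, cytosolic ribosomal proteins were the largest named class, with 13.2% of summed RPKM, since a short gene collects fewer reads at the same level. Of the 101 genes in that class 85 stood at 100 RPKM or more, with a median of 597 RPKM. The 25 genes matched as mitochondrial ribosomal proteins ranged from 8.54 to 46.7 RPKM, all below the median of their cytosolic counterparts. The GO Process terms of at least 20 genes with the highest medians included viral transcription (a term given to ribosomal proteins, 692 RPKM over 48 genes), translational termination (678 RPKM over 50 genes) and translational elongation (367 RPKM over 87 genes). Nuclear mRNA splicing had a median of 52.3 RPKM over 115 genes, of which 111 reached 1 RPKM.

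The leading members of the classes are given next. A gene's place in a class rests on words in its entries, or for ribosomal proteins also on its symbol, and does not show its main role. Genes of like function can fall outside a class, and its leaders and share then miss them. The ubiquitin gene ubc (548 RPKM) and anp32b (434 RPKM), named like anp32a, were among the annotated genes that matched no class. In RNA splicing and processing, ybx1, cirbpa, hnrnpaba and khdrbs1a stood at 1872, 1661, 1427 and 1405 RPKM, and 472 of the 521 genes reached 1 RPKM. Translation was led, after eef1a1l1 and eef2b, by the poly(A)-binding protein gene pabpc1a (1119.6 RPKM) and eif5a (696 RPKM). In the chromatin class hmga1a, both prothymosin genes and the histone H3.3 gene h3f3d (1245 RPKM) came first. Of the genes in the class of DNA replication, repair and cell division, 499 of 605 were at 1 RPKM or more. The class does not separate genes that promote division from genes that restrain it. It was led by pcna, the sliding clamp of DNA polymerase (512 RPKM), the topoisomerase gene top1a (250.2 RPKM), ccng1 (232 RPKM) and btg2 (204 RPKM). The helicase subunits mcm2, mcm4 and mcm7 had 179, 166 and 162 RPKM.

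Chaperones were led by hspb1, hspa8, hsp90ab1 and ppiaa (618 RPKM), and the ubiquitin and proteasome class by sumo3a (485 RPKM), UBB (242 RPKM), sumo3b (222 RPKM) and psmb4 (202 RPKM). In the cytoskeleton class actb2 and actb1 had 3252 and 1434 RPKM, followed by a beta tubulin gene without a symbol (639 RPKM) and the thymosin gene tmsb4x (631 RPKM). In nuclear transport ran, the GTPase that drives import and export, had 1169.7 RPKM, ahead of ranbp1 (269 RPKM), kpnb3 (235 RPKM) and NUTF2 (203 RPKM). Vesicle transport was led by naca (1099 RPKM) and the translocon subunits sec61b (358 RPKM) and sec61a1a (318 RPKM).

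Lysosomal proteins were led by psap, the saposin precursor (737 RPKM), and the cathepsin genes ctsba, ctsla and ctsc (587, 479 and 459 RPKM). Genes of iron, methyl group and sugar metabolism were among the highest of the metabolic class: the ferritin gene fth1a (733 RPKM), bhmt (607 RPKM) and the aldolase gene aldoaa (514 RPKM). In solute transport the leading genes were fabp2 (631 RPKM), the transferrin gene tfa (521 RPKM), SLC25A3 (453 RPKM) and the sodium pump gene atp1a1a.1 (213 RPKM). Adhesion was the class with the smallest share of genes at 1 RPKM, 296 of 717, among them gjc4b (445 RPKM), alcamb (307 RPKM), the N-cadherin gene cdh2 (218 RPKM) and a laminin gene listed as lamb1a (202 RPKM). A further gene ID of the adhesion class that carries the name lamb1a had 132 RPKM. Signalling was led by rack1 (1211 RPKM), rbm4.3 (677 RPKM), the beta-catenin gene ctnnb1 (432 RPKM) and akap12b (319 RPKM).

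Transcription regulation was led by si:ch211-279m15.1, whose place there rests on the remote protein match described above, then by btf3 (769 RPKM), anp32a (393 RPKM) and ilf2 (382 RPKM). The gene si:ch211-279m15.1 alone supplied 48490 of the 770540 reads of the class and 6602 of its 35151 summed RPKM. In the same class cdx4, a caudal-type homeobox gene of the posterior body, stood at 193 RPKM. Under the GO Function term for sequence-specific DNA-binding transcription factors, looked up after the values were seen, 611 of 850 genes (71.9%) reached 1 RPKM and 45 had no read. Of all gene IDs 58.2% reached 1 RPKM and 10.7% had no read. The term is broad: it was led by hmga1a, ybx1 and hnrnpaba and takes in the ribosomal protein gene rpl18. Beside cdx4 its members included sox19a (169 RPKM), xbp1 (151 RPKM), etv5b (127 RPKM), mycn (115 RPKM), mych (106 RPKM), zic2b (104 RPKM) and tfap2a (102 RPKM).

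Marker genes were then read in 20 lists for tissues that exist or are being laid down at this stage and in 12 lists for organs that mature later. In the tissue lists 218 of the 274 members found (79.6%) reached 1 RPKM, with a median of 9.47 RPKM and 4 members without a read. In the later organ lists 31 of 128 (24.2%) did, with a median of 0.202 RPKM and 30 members without a read. Over all gene IDs the share at 1 RPKM was 58.2% and the median 2.03 RPKM. The lists were chosen with earlier results of these data known, so the difference between them is a description and not a test. Many markers are used by several tissues, and in RNA of whole embryos fewer cells of a type and less RNA per cell cannot be told apart.

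**Figure D3:**
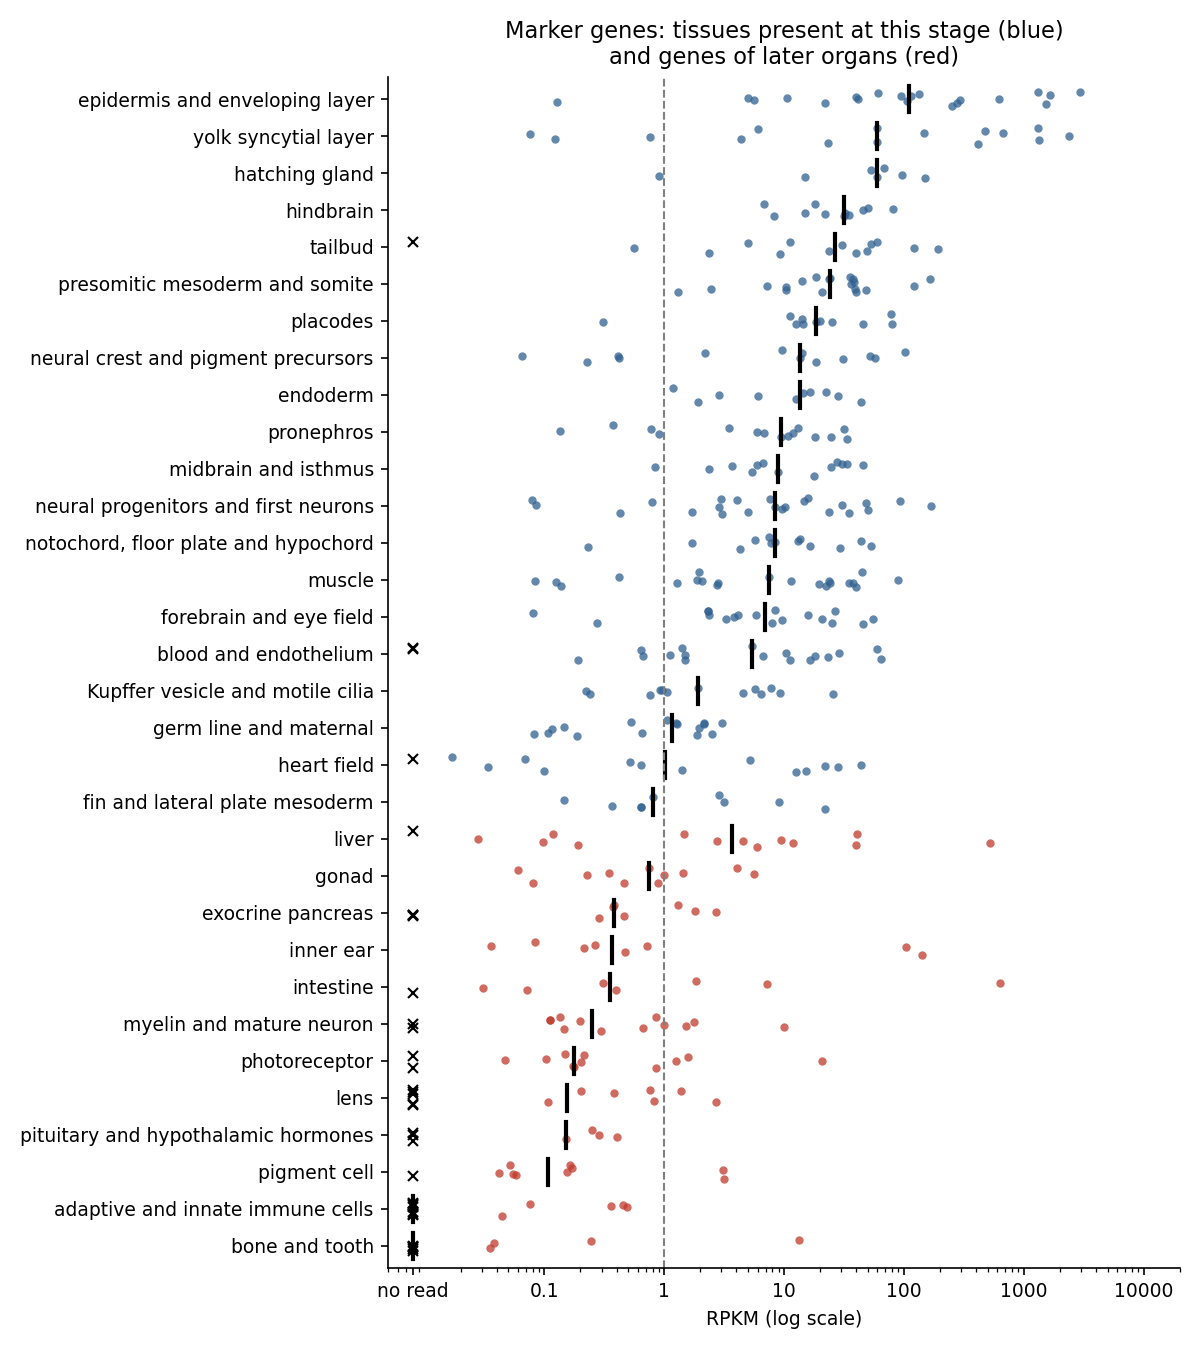
RPKM (x axis, log scale) of the marker genes found, 1 row per list, for tissues of this stage (blue) and later organs (red). Points are genes, black bars are medians, crosses are genes without a read and the dashed line is 1 RPKM. Medians run down to 0.806 RPKM (fin and lateral plate mesoderm) in the blue lists and from 3.66 RPKM (liver) to no read in the red ones.

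All 19 markers of the presomitic mesoderm and somites that were found reached 1 RPKM. The T-box gene tbx6 had 4941 reads, or 164 RPKM (159 to 168), and the basic helix-loop-helix gene msgn1 had 121 RPKM (114 to 127). Both act in unsegmented mesoderm. The homeobox gene meox1 of the formed somite stood at 48.3 RPKM, tbx16 at 39.6, ripply1 at 39.2 and the clock gene her1 at 38.03, with her7 at 35.3 RPKM. The lowest were the segment boundary genes mespba and mespab at 2.46 and 1.31 RPKM.

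In the tail bud, cdx4 (193 RPKM), msgn1, cdx1a (59.3 RPKM), tbxta (53.2 RPKM), sp5l (49.5 RPKM) and tbx16 led a list with a median of 26.8 RPKM. In that list hoxb13a had no read. The notochord list, which shares tbxta, also held the collagen genes col8a1a (44.2 RPKM) and col2a1a (29.2 RPKM), foxa2 (16.5 RPKM), the ligand gene shha (13.5 RPKM) and noto (12.9 RPKM), and 12 of its 13 members found reached 1 RPKM.

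In the muscle list 17 of the 21 members found reached 1 RPKM, and both regulators and contractile genes ranged widely. It was led by the chaperone genes hsp90aa1.1 (89.6 RPKM) and unc45b (44.7 RPKM), which fold myosin, the regulator myf5 (39.8 RPKM), prdm1a (37.7 RPKM), which directs slow fibre fate, actc1b (34.8 RPKM) and tpma (24.4 RPKM). The determination gene myod1 had 414 reads, or 23.6 RPKM, while the later regulators myog and myf6 had 1.97 RPKM and 3 reads. The slow myosin gene smyhc1 stood at 11.4 RPKM. Of the fast fibre genes mylpfa and tnnt3a had 2 reads and 1 read, while mylz3 had 32 reads, or 2.79 RPKM. The muscle creatine kinase genes ckma and ckmb had 20 and 2 reads.

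Of the 14 heart field members 7 reached 1 RPKM. The factors gata5 (43.7 RPKM), gata6 (28.2), hand2 (21.8) and gata4 (15.1), the hyaluronan synthase gene has2 (12.6) and tbx20 (5.24) stood well above the early cardiac gene nkx2.5, which had 23 reads and 1.402 RPKM (0.889 to 2.104), and above tbx5a, at 0.638 RPKM. The genes of working heart muscle had few reads: tnnt2a had 6, myh6 2, myl7 and vmhc 1 each and nppa none. For myl7 that gives 0.0985 RPKM with an interval of 0.00249 to 0.549 RPKM.

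The blood and vessel list was led by gata2a (64.5 RPKM), klf17 (59.1), the endothelial regulator etv2 (28.6), lmo2 (23.3), tal1 (17.97) and lcp1 (16.5). Of these klf17 is also in the hatching gland list. The gene gata1a, a regulator of red cells, stood at 5.40 RPKM. The regulators spi1b and runx1 were lower, at 1.48 and 0.662 RPKM. The name runx1 falls on 2 gene IDs, and the value given is that of 1 of them, with 6 reads. Among genes of differentiated cells, the haem enzyme gene urod had 11.3 RPKM and the globin gene hbae3 6.63 (37 reads). Lower still were kdrl at 1.48, alas2 at 1.11 and cdh5 at 0.636 RPKM. The globin gene hbbe3 had 1 read, and hbae1.1 and mpx had no read. In all 14 of the 19 members found reached 1 RPKM. Globin genes lie in near-identical copies, and reads that match several copies are not among unique reads, so their sum may be understated by an amount that was not tested. The kidney list was led by pax2a (33.6 RPKM), irx3b (31.5), pax8 (24.4), hnf1ba (17.9), osr1 (13.1) and podxl (11.8), and its filtration gene nphs1 had 0.375 RPKM. All 10 endoderm members found reached 1 RPKM, led by gata5, gata6, foxa3 (22.2 RPKM), foxa2, foxa1 (14.4 RPKM) and cxcr4a (12.5 RPKM), with sox17 at 1.904 and pdx1 at 1.18 RPKM.

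Of the brain markers found, 16 of 18 in the forebrain and eye field list, 12 of 13 in the midbrain and isthmus list and all 11 in the hindbrain list reached 1 RPKM. The forebrain and eye field list was led by six3b (55.1 RPKM), otx2b (45.6), pax6b (26.4), otx2a (24.9), the eye field gene rx3 (20.9) and fezf2 (15.7), while vax2 and six6a had 3 reads and 1 read. At the midbrain and its boundary with the hindbrain, otx2b, pax2a, the organizer signal gene fgf8a (30.2 RPKM), en2b (27.5), pax8 and gbx2 (17.8) came first, and en1b was lowest at 0.833 RPKM. All 11 hindbrain members found were above 6 RPKM, from hoxb1b (81.1 RPKM), epha4a (49.99), irx7 (45.5), hoxb1a (35.1), egr2b (32.2), which marks alternate segments of the hindbrain, and hoxb3a (31.9) down to hoxb2a (6.84).

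Of the 23 members found of the neural progenitor and first neuron list 19 reached 1 RPKM. The SoxB1 genes sox19a, sox3 and sox2, which maintain progenitors, had 169, 93.1 and 47.9 RPKM, with sox19b at 34.6 and sox1a at 4.03 RPKM. Among genes of the first neurons elavl3 had 50.1 RPKM, the proneural gene neurog1 30.2 and the motor and sensory neuron genes isl2a and isl1a 15.9 and 10.2 RPKM, whereas elavl4 of more mature neurons had 0.431 RPKM. In the neural crest list tfap2a (102 RPKM), snai1b (57.2), sox9b (52.2), snai2 (30.8), sox9a (18.5) and pax3a (14.2) led, sox10 had 13.7 RPKM, and mitfa and ltk of pigment lineages had 0.225 and 0.0645 RPKM. The early crest regulator foxd3 had 39 reads that covered 9.06% of its listed 1799 bases, so its 2.19 RPKM rests on a small stretch of the gene model. Placode markers were led by gata3 (79.3 RPKM), dlx3b (77.3) and otx2b, and also held sp5a (19.9) and six4b (18.3).

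The outer layers and the yolk gave the highest list medians. Epidermis and enveloping layer markers had a median of 110.5 RPKM, with 19 of the 20 found at 1 RPKM or more. Among them were krt4 at 2961 RPKM, krt5 at 1652, krt8 at 1539, krt18a.1 at 1303, krt92 at 618 and krt17 at 296. The adhesion genes epcam and cdh1 had 252 and 94.0 RPKM. The keratin gene krtt1c19e had 2 reads, and foxi3b and foxi3a had 5.60 and 4.95 RPKM. Over the whole keratin class 17 of 36 genes reached 1 RPKM, with a median of 0.864 RPKM. Yolk syncytial layer markers had a median of 59.7 RPKM, with 12 of the 15 found at 1 RPKM or more. The highest were lipoprotein genes: the carrier proteins apoeb (2377 RPKM), apoc1 (1345), apoa1a (1304), apobb.1 (675) and apoa2 (413), and mttp, which loads lipid onto apolipoprotein B, at 59.7 RPKM. The cathepsin gene ctsla, at 479 RPKM, belongs to the same list. The low members included apoea (0.759 RPKM) and the layer's own regulator mxtx2 (1 read). The hatching gland list, with a median of 59.1 RPKM, held the secretory regulator xbp1 (151 RPKM), the hatching enzyme genes he1.1 and he1.2 (96.7 and 53.0), cd63 (68.7), klf17 and ctslb (14.8). For ctslb this is the value of 1 of the 2 gene IDs with that name, covered over 41.6% of its length.

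The heart field list, with a median of 1.02 RPKM, and those of Kupffer's vesicle, the germ line and the fin had medians below that of all gene IDs. Markers of Kupffer's vesicle and motile cilia had a median of 1.904 RPKM, led by rfx2 (25.8 RPKM), dand5 (9.21), pkd2 (7.75), foxj1b (6.36), foxj1a (5.70) and ift88 (4.53). The left side signal spaw had 3 reads. Germ line and maternal genes had a median of 1.16 RPKM and a highest value of 3.02 RPKM, for the linker histone gene h1m, followed by piwil2 (2.48), nanos3 (2.15), tdrd7a (2.14), zar1 (1.95) and ddx4 (1.86), the zebrafish vasa gene. In the fin and lateral plate list hand2 led, then prrx1a (9.002 RPKM), fgf24 (3.12), foxf2a (2.88), fgf10a (0.806) and the fin regulator tbx5a (0.638).

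Genes of later organs were mostly under 1 RPKM. No member of the pituitary and hypothalamic hormone list (7 found) or of the immune cell list (12 found) reached 1 RPKM. Their highest members were cga at 0.402 RPKM and rag2 at 0.490 RPKM. Among the crystallin and other lens genes only foxe3 (2.70 RPKM), a lens regulator, and crygn2 (1.39) passed 1 RPKM. In the exocrine pancreas list the highest was ela2l (2.70 RPKM), in the pigment cell list pmela (3.16) and slc24a5 (3.11), and in the gonad list zp3a.1 (5.65), foxl2a (4.01) and cyp17a1 (1.44).

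The liver list had the highest median of the later organ lists, 3.66 RPKM, above the 2.03 RPKM of all gene IDs, and 9 of the 14 members found reached 1 RPKM. In it tfa had 521 RPKM, serpinc1 40.9, itih2 39.4, fgb 11.8, f2 9.50, ambp 5.998, fga 4.58, fgg 2.73 and ahsg1 1.46, whereas fabp10a and f9a had 1 and 2 reads and cyp7a1 none. In other lists single genes were high. In the inner ear list stm, whose product shapes the otoliths, had 4672 reads and 142 RPKM over 96.6% of its length, and pvalb9 had 105 RPKM, while the other 6 members found stayed under 1 RPKM. In the intestine list fabp2 had 631 RPKM and alpi.1 7.22. The gene name fabp2 came from the KEGG match and not from the Ensembl table. The bone regulator sp7 had 13.4 RPKM over 92.6% of its length while col10a1a and entpd5a had 1 read each. The glial gene gfap had 9.98 RPKM, ahead of slc6a4a (1.77) and gap43 (1.53) in the myelin and neuron list. The photoreceptor list was led by gngt2a (20.6 RPKM), pde6a (1.57) and saga (1.25).

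In the lists of 7 signalling pathways 131 of 152 members found (86.2%) were at 1 RPKM or more, against 58.2% of all gene IDs. Their median was 13.1 RPKM, against 2.03 RPKM over all gene IDs. By pathway and role the lowest share was that of the Nodal ligands, 1 of 4. These lists too were chosen with earlier results of these data known. Over all pathways the ligands had a median of 4.32 RPKM (31 of 42 at 1 RPKM or more), the receptors 22.4 RPKM (42 of 44), the targets 30.8 RPKM (39 of 41) and the inhibitors 6.53 RPKM (11 of 16). Within Notch, Wnt, FGF, BMP and Hedgehog alike, the median of the receptors and that of the targets were above that of the ligands.

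**Figure D4:**
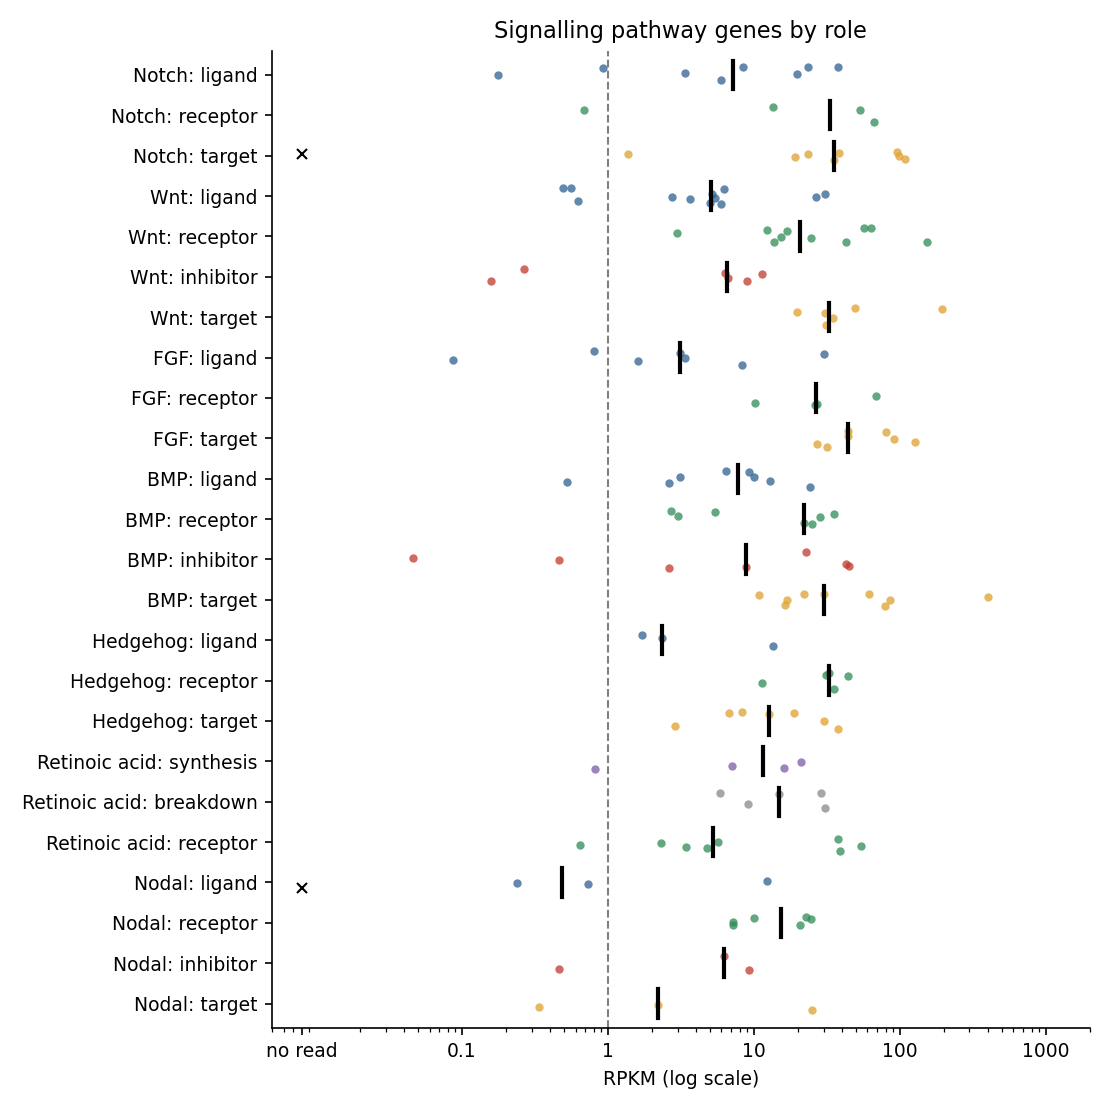
RPKM (x axis, log scale) of pathway genes by pathway and role (y axis, 1 row each). Points are genes, black bars are medians, crosses are genes without a read and the dashed line is 1 RPKM. FGF ligands have a median of 3.12 RPKM, FGF receptors 26.8 and FGF targets 44.2.

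Notch signalling passes between touching cells through membrane ligands. Its ligand genes were led by dlc (37.4 RPKM) and dld (23.7), both known from the segmentation clock, and its receptor genes by notch3 (66.7) and notch1a (53.0). The genes placed in the target list were led by her9 (109 RPKM) and hes6 (98.8). Whether Notch drives either gene here was not tested. The target heyl had no read. The receptor gene notch2 was listed at 0.691 RPKM, its 69 reads covering 2.86% of a model of 10095 bases.

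Wnt ligand genes were led by wnt5b (30.7 RPKM) and wnt11 (26.8), which steer cell movement in the embryo, ahead of the tail bud ligand wnt3a (4.97). All 10 receptor genes found reached 1 RPKM, with fzd7a at 153 RPKM and fzd7b at 63.0. The secreted inhibitors were led by notum1a (11.4) and wif1 (9.01), and the targets by cdx4 and sp5l. For FGF, fgf8a (30.2 RPKM) and fgf3 (8.35) led the ligands, fgfr4 (68.4) and fgfr2 (27.3) the receptors, and etv5b (127) and the feedback phosphatase gene dusp6 (91.8) the targets. All 7 FGF targets found were above 27 RPKM.

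BMP ligand genes were led by bmp7a (24.4 RPKM) and bmp2b (12.8), the receptors by acvr1l (35.2) and bmpr1aa (28.6), the inhibitors by bambia (44.7) and the secreted antagonist gene chrd (42.9), and the targets by id1 (399.5) and vox (85.6). All 15 Hedgehog genes found reached 1 RPKM. They included shha (13.5 RPKM) and ihha (2.34) among ligands, boc (35.4) and smo (32.9) among receptors and coreceptors, and prdm1a (37.7) and gli2a (30.1) among targets.

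For retinoic acid, synthesis genes were led by aldh1a2 (20.9 RPKM), the somite enzyme, and rdh10a (15.96). The genes listed under breakdown were led by dhrs3b (30.5) and cyp26a1 (28.8). That list was not limited to enzymes that degrade retinoic acid itself. The receptor genes were led by rarab (54.5) and rxrba (38.9). Nodal stood apart in its ligands: gdf3, a maternal ligand gene, had 12.3 RPKM, ndr2 0.734 and ndr1 no read, while all 6 Nodal receptor genes found were above 7 RPKM, led by acvr2bb (24.7) and acvr1bb (22.7). Nodal inhibitors were led by dand5 (9.21) and lft1 (6.22), and the target gene gsc had 2.22 RPKM.

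Hox genes were read in every paralog group, numbered by their order from the anterior end of the clusters. Of 43 genes found by symbol 36 reached 1 RPKM. Hox genes whose symbol was not recovered are not counted. All 32 genes found in groups 1 to 10 reached 1 RPKM. Their median was 14.4 RPKM and their range 1.12 (hoxa1a) to 81.1 RPKM (hoxb1b). In groups 11 to 13, which pattern the tail end, 4 of the 11 found did. Their median was 0.857 RPKM and their highest value 5.23 RPKM (hoxd11a). The groups did overlap, since hoxa1a and hoxb6b (3.22 RPKM) lay below the highest genes of groups 11 and 12.

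**Figure D5:**
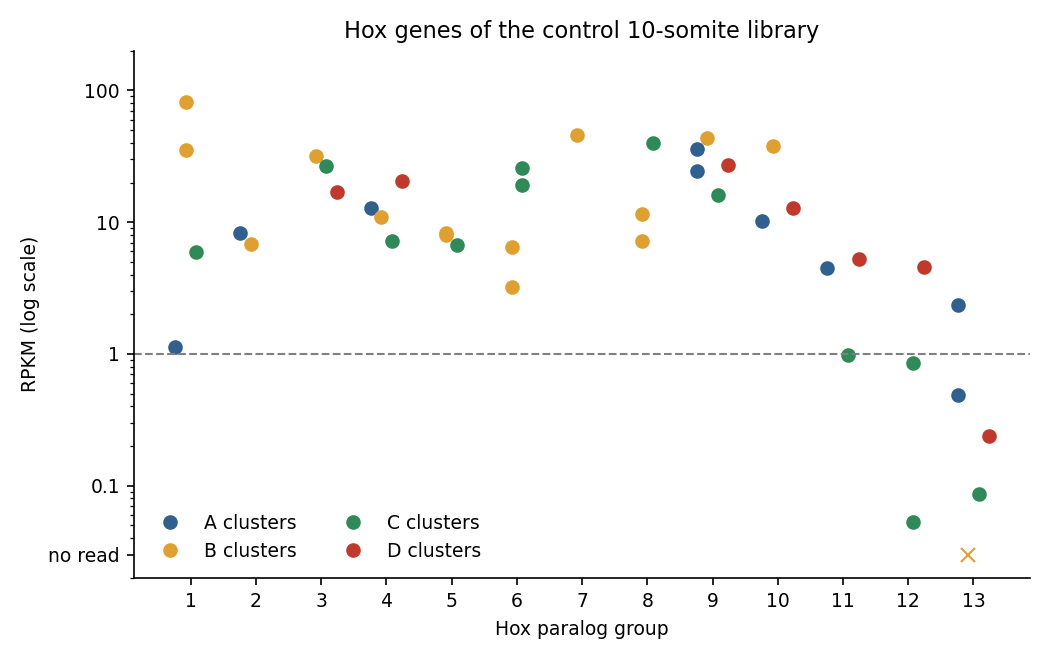
RPKM (y axis, log scale) of each Hox gene found by symbol, by paralog group (x axis) and coloured by cluster. The cross marks hoxb13a, which had no read, and the dashed line is at 1 RPKM. Levels lie between 1.12 and 81.1 RPKM in groups 1 to 10 and at 5.23 RPKM or below in groups 11 to 13.

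Group 1 ranged from hoxa1a to hoxb1b. Group 2 was led by hoxa2b (8.29 RPKM), group 3 by hoxb3a (31.9), group 4 by hoxd4a (20.6) and group 5 by hoxb5b (8.33), with hoxb5a and hoxc5a close to it at 8.01 and 6.70. Group 6 was led by hoxc6b (25.8), group 7 consisted of hoxb7a alone (46.2) and group 8 was led by hoxc8a (40.2). Over the genes found, group 9 had the largest sum of the groups, 147 RPKM over 5 genes, led by hoxb9a (43.6) and hoxa9a (35.9). Group 10 was led by hoxb10a (37.9), group 11 by hoxd11a (5.23), group 12 by hoxd12a (4.56) and group 13 by hoxa13b (2.35). In group 13 hoxa13a, hoxd13a and hoxc13a had 8, 4 and 1 reads.

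The 2652 gene IDs without a read were short, with a median listed length of 1155.5 bases against 1900.5 for genes with reads. Of the shortest 25% of genes 20.7% had no read, and of the longest 25% 3.25% had none. Among protein-coding genes 10.0% had no read, among processed transcripts 21.8%, among pseudogenes 37.5% and among antisense genes 25.4%. No source used here says whether counting took account of strand, so reads of an antisense gene and its partner cannot be told apart.

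By KEGG name, groups with the largest share of unread genes included those matched to sensory receptors, immune proteins and kinases. A group holds the genes whose listed match carries that name. It need not be a gene family, and its genes need not be the gene named. Over all gene IDs 10.7% had no read, and the median over the 71 KEGG names of at least 20 genes was 14.3%. The shares are not adjusted for gene length. Of 49 genes matched to trace amine associated receptors, which sense amines in the nose, 36 (73.5%) had no read and none reached 1 RPKM. Of 28 matched to the B cell protein CD22 15 (53.6%) had none. Genes matched to Pim-2 kinase (16 of 31 unread, 51.6%), Pim-3 kinase (20 of 41, 48.8%) and the cadherin CELSR1 (39 of 84, 46.4%) came next, ahead of olfactory receptors (15 of 33, 45.5%). Then followed genes matched to HtrA serine peptidase 2 (11 of 26), the mannose receptor (18 of 47), F-box protein 30 (8 of 21) and RBBP6 (9 of 24). Genes of 1 such group may resemble each other closely in part. Copies that share their reads would be listed low in a count of unique reads, which was not tested.

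By GO Process, detection of smell led with 12 of 28 genes unread, followed by cilium movement in left-right asymmetry (8 of 20), oxygen transport (7 of 20), G-protein signalling through cAMP (10 of 32), homophilic cell adhesion (45 of 145), protein-chromophore linkage (9 of 29), the term of the light-sensing opsins, and learning or memory (6 of 20). Somite specification was next with 6 of 21, then elevation of cytosolic calcium (7 of 25) and negative regulation of BMP signalling (7 of 25). The median over the 527 GO terms of at least 20 genes was 6.17% unread, and 87 of these terms had no unread gene. Gene length was not adjusted for here either. Median lengths were 581 bases for oxygen transport and 650 for cilium movement, but 3567 for somite specification.

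Of the 35 list members without a read, 30 came from later organ lists. They were the lens genes cryba1b, cryaa, crybb1, lim2.1 and bfsp2, the photoreceptor genes opn1lw1 and rcvrna, the liver gene cyp7a1, the pancreas genes cpa5, cpb1 and pdia2, the gut transporter gene slc15a1b, and the hormone genes prl, tshba and crhb. The immune genes lck, zap70, cd4-1, il2rga, ighm, lyz and mpx, the bone genes bglap, scpp1, spp1, runx2a and scpp5, the catecholamine enzyme genes th and dbh, and xdh of pigment cells completed them. For these 35 genes 3 reads would have stood for 0.0533 to 0.815 RPKM, so a count of 0 does not exclude expression under that level.

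Most well-read genes were read along their whole length. A single read covered 49 bases, so the covered share of genes with few reads is limited by their number. The median covered share of the listed length was 8.02% in genes with 1 to 9 reads, 46.5% with 10 to 99, 89.1% with 100 to under 1000 and 97.4% with 1000 to under 10000. Of 2054 genes with at least 1000 reads, 25 (1.22%) were covered over less than 50% of their length, and their RPKM, which divides by the whole listed length, may not reflect the transcript made. Apart from tpt1 these included rpl13a and the ribosomal protein genes rps24 (44.2%), rpl37 (45.4%) and rps28 (47.6%), the giant muscle genes ttn.1 (41.5%) and ttn.2 (27.4%), the keratin gene cyt1 (38.9%) and SEC61G (13.5%).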

How the data were processed

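The description covers the RNA library of control embryos at the 10-somite stage. The deposited table gives, per the file headers, a count of unique reads, an RPKM value and the covered fraction of the listed length for each Ensembl gene. Per the submitters' processing notes TopHat2, BWA, HTSeq 0.6.1 and MACS2 were used in the study, with no role named, and no source used here names the genome build. The counts are raw, and the RPKM the authors deposited equals the count over the listed length in kilobases and the header's read total in megareads. A dash was read as 0, and the 376 rows of the 186 gene IDs listed more than once were summed. In no such ID did more than 1 row have reads.

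Symbols came from the Ensembl ID table (8408 IDs), from the RefSeq gene of the listed protein match (7696), from the KEGG match (1903), from protein names (94) or as capital names (2261), and 4470 IDs had none. Where it could be checked, the protein match gave the Ensembl symbol for 98.2% of 2915 IDs and the KEGG match for 94.3% of 1870. Of 594 list symbols 527 were found. Each gene went to the first of 21 named classes whose words matched its KEGG name (vertebrate matches). Its GO Process terms were used where no KEGG name did. Ribosomal proteins were placed ahead of the other classes, by a KEGG name matched in any species or by gene symbol. The symbol or the listed protein match separated mitochondrial from cytosolic ones. GO Process terms of 1538 IDs were not used here.

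The 1 library, the lists, the classes and their words were chosen with earlier results of these data known. Genes named are the 30 of highest RPKM, the 20 with most reads, up to 6 per marker list, 4 per class, 2 per pathway role, the top Hox gene of each group, members without reads and the 10 terms with most unread genes. A few genes that this rule takes in are not reported here. Others named were chosen after their values were seen. There is no test. Shares carry exact Clopper-Pearson intervals and levels exact Poisson intervals. Reads are not independent molecules. Summing and shares were tested on simulated data. Work was done in SciPy 1.17.1, pandas 2.3.3, numpy 2.4.6, matplotlib 3.10.9 and Python 3.11.15.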

Additional observations from a re-analysis of the deposited data

How the results depend on the processing

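No paired analysis was possible because the description rests on 1 library and no test was made. The number of genes at 1 RPKM stayed within 1.5 times under the 4 other minimums or row sets tried, and so did the tissue marker, pathway and Hox counts under 3 other minimums. The count of genes without a read depends on its limit: 7094 had fewer than 5 reads. The later organ count of 31 became 18 at 3 RPKM and 49 at 10 reads. By summed RPKM the top 10, 100 and 1000 genes held 10.3%, 34.0% and 64.4%, and 347 genes held 50%. Without eef1a1l1 the shares of reads were 7.402%, 22.8% and 56.0%. Class shares follow the rule of sorting. RNA splicing and processing had 8.03% of summed RPKM, 6.71% of reads by KEGG alone, 5.78% by GO alone and 10.8% with each gene in every class it matched. On the same 4 settings transcription regulation had 6.92%, 3.97%, 7.35% and 16.4%, and metabolism and other enzymes 8.75%, 9.39%, 7.04% and 36.6%. Translation factors with tRNA synthetases had 5.71%, 5.56%, 9.89% and 11.1%. They were the largest named class by GO alone, a setting that forms no ribosomal protein class. Of the 39 lists 4, 6 and 5 moved by over 1.5 times at 0.5 RPKM, 3 RPKM and 10 reads. Promoter features were planned and not run, as no promoter table was used here.

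Genes with a few reads carry wide intervals, symbols rest partly on protein matches, and 67 list symbols were not found. The spread between embryos is unknown.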

Other observations

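Zebrafish keep many gene pairs from a whole genome duplication, often named with a final a and b. Such pairs were collected by name after the data had been seen. Of 1837 pairs, both members reached 1 RPKM in 882, 1 member did in 545 and neither did in 410. Where both did, the higher member exceeded the lower by a median of 2.65-fold, 346 pairs lay within 2-fold and 98 differed by at least 10-fold. The member named a was higher in 473 of these pairs and the member named b in 409. Among the widest gaps were hmga1 (5237 RPKM for hmga1a, 3.77 for hmga1b) and fth1 (733 for fth1a, 4.09 for fth1b). In the opposite direction rbm25b had 71.8 RPKM against 1.26 for rbm25a, and fbp1b had 207 against 3.87 for fbp1a. A name does not show that a pair arose by that duplication, and reads shared by near-identical copies are missing from unique counts.

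Genes listed as non-coding held little of the library. The 1023 processed transcripts held 1.002% of reads, and si:ch211-279m15.1 supplied 48490 of their 99161 reads. After it and si:dkey-151g10.6 came a gene without a symbol at 617 RPKM and si:dkey-149i7.2 at 256 RPKM. The small nucleolar RNA host gene gas5 had 139.5 RPKM and oip5-as1 had 106 RPKM.

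A few list members with 30 or more reads were covered over a small share of the gene model, which is to be read against the most that their reads could cover end to end at 49 bases each. For notch2 the reads covered 2.86% of the length where 33.5% was possible, and for foxd3 9.06% where the whole length was. The shares were 18.7% of a possible 60.8% for saga (42 reads), 27.4% of 91.3% for ttn.2 and 18.1% of 44.8% for dnah11 (57 reads). The gap was narrower for bfsp1 (18.4% of a possible 36.8%), tdrd6 (31.2% of 61.4%) and dnah5 (25.5% of 37.2%), and reads that fall evenly also overlap in part. Presence of the transcript named in the list was not tested for these genes.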
